A study of Homo sapiens with 12 samples.

Results

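The comparison described here set heavy polysomes against light polysomes in MCF10A cells in which the translation initiation factor eIF4G1 had been silenced. It used 4 of the 12 arrays of the series, chosen by their titles: the light pool (LMW) and the heavy pool (HMW) of mock-treated silenced cells, and the same 2 pools of silenced cells given 10 Gy from a linear accelerator. MCF10A is a human mammary epithelial line that is generally described as non-tumorigenic, whereas the labels name breast cancer as the origin. Silencing came from an shRNA that doxycycline induces, and the silenced cells are called 4GKD below, as in the titles. The 4 matching pools of wild-type (WT) cells, mock and 10 Gy, served for the difference between genotypes and entered the same fit. The errors, p-values and calls in 4GKD cells therefore also depend on how close the 2 WT pairs were to each other. Each pool was measured on 1 array, so the mock pair and the 10 Gy pair were the only repeats of the comparison. The sources used here do not say whether the WT cells had a control hairpin or were given doxycycline, how long after irradiation cells were harvested, or whether the silenced line was clonal. Nothing says that the samples came from separate cultures, and the p-values therefore measure only the spread between these samples, which may be technical. That spread is how far the mock and 10 Gy pairs of a genotype differ. Any effect of 10 Gy on the comparison is therefore part of the error and cannot be told apart from it.

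An mRNA in active translation carries several ribosomes, and a sucrose gradient separates mRNAs by how many they carry. Longer coding sequences have room for more ribosomes, and slow initiation leaves an mRNA with few. eIF4G1 is the scaffold of the cap-binding complex eIF4F: it joins the cap-binding protein eIF4E, the helicase eIF4A and the poly(A)-binding protein, and through eIF3 it brings the small ribosomal subunit to the mRNA. The labels give ribosome numbers for the WT mock pools alone, with 1 to 3 on each mRNA of the LMW pool and 4 upwards in the HMW pool, and the study's text takes fractions with at least 4 as heavily translated. Each array was normalised as a whole, so a difference between HMW and LMW places a gene relative to the other genes on those arrays. The amount of RNA in each pool was not measured by the arrays, and fewer cells or less RNA per cell cannot be told apart. Values are log2 RMA intensities, differences are HMW minus LMW on that scale (1 is a 2-fold difference), and a gene is called where limma's adjusted p (Benjamini-Hochberg over all 10157 genes tested) was below 0.05. Errors given as SE are limma's, from 2 pairs of arrays per genotype.

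The targeted gene was measured first. EIF4G1 intensity in 4GKD cells was 15.9% of the WT value in mock total RNA and 20.4% in irradiated total RNA. In the pools it was 26.8% and 23.5% of WT in LMW but 6.36% and 9.43% in HMW. In 4GKD cells its log2 level was 6.99 in mock LMW, 7.53 in mock HMW, 6.45 in 10 Gy LMW and 7.56 in 10 Gy HMW. HMW was above LMW in both pairs, with a mean difference of 0.83 (SE 0.18, limma adjusted p = 0.00969). The WT pairs differed by 2.61 and 2.43, so that the 4GKD pairs lay below both, and the difference between genotypes was -1.70 (SE 0.26, limma adjusted p = 0.0132). A second EIF4G1 probe set lay below log2 6 in all 4 4GKD polysome arrays. The cells carried the markers of basal mammary epithelium: KRT5, KRT14, ITGA6, LAMB3 and CDH3 were at log2 6 or more in all 6 arrays of 4GKD cells, and 5 of 7 luminal markers were too, while KRT19 was below 6 in all of them. Of 6 fibroblast markers COL1A1 alone passed that level in all 6 arrays, and the 4 endothelial and 3 blood markers on the array (PECAM1, CDH5, VWF, KDR, PTPRC, CD3E and HBB) were below it in all 6. The summed intensity of the fibroblast markers ran from 401 to 451 in the 4GKD LMW pools and from 405 to 569 in the HMW pools.

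Of the 10157 genes tested, 2178 were called higher in HMW of 4GKD cells (21.4% of all tested) and 2201 lower (21.7%). All 4379 called genes had the same sign in both pairs, as did 87.3% of all genes. The test favours such genes, because its error grows where the pairs of a genotype disagree, so this is no separate check. The distribution was lopsided in size: 876 of the genes called higher differed 2-fold or more, against 109 of those called lower. In the mock pair alone 922 genes (9.08%) were 2-fold or more higher in HMW and 255 (2.51%) 2-fold or more lower. The 10 Gy pair gave 965 (9.5%) and 81 (0.797%), and 678 genes (6.68%) were 2-fold higher and 42 (0.414%) 2-fold lower in both pairs. Across genes, which are not independent replicates, the differences of the 2 4GKD pairs had a Pearson r of 0.91. The median of all genes was -0.06, and it was -0.09 in the mock pair and -0.02 in the 10 Gy pair. The counts rested on the pairing of pools within a condition and on both 4GKD pairs: with no block for condition 12 genes were called higher and 0 lower by limma (762 and 826 at an unadjusted p below 0.05), without the mock pair 470 and 84, and without the 10 Gy pair 636 and 295. With the WT mock pair or the WT 10 Gy pair left out, 3384 and 3438 genes were called lower.

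**Figure D1:**
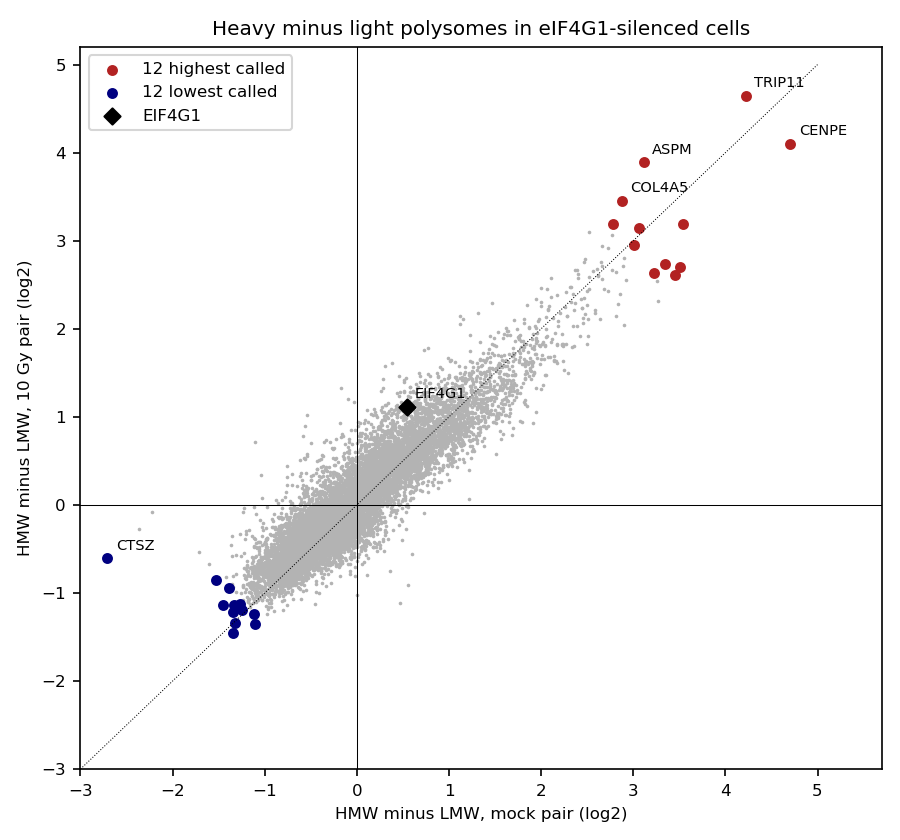
Each point is 1 tested gene, with HMW minus LMW (log2) of the mock pair of 4GKD cells on the x axis and of the 10 Gy pair on the y axis; red and blue points are the 12 highest and 12 lowest called genes, the black diamond is EIF4G1 and the dotted line is equality. The cloud follows the dotted line (Pearson r 0.91 across genes), reaches above 4 on the upper side and rarely passes -1 on the lower side, and CTSZ lies off the line.

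The 12 genes with the largest called difference included genes of mitosis, chromatin, the Golgi, the nuclear pore and the matrix. CENPE, the kinesin that links kinetochores to microtubules, measured 4.94 in mock LMW, 9.65 in mock HMW, 4.52 in 10 Gy LMW and 8.62 in 10 Gy HMW. Both HMW values were above 8 and both LMW values were below 6, the level used to filter dim genes, so the exact size of the difference of 4.40 (SE 0.35, limma adjusted p = 0.00035) cannot be read. TRIP11, a Golgi tether also known as GMAP-210, had the same shape, with 4.27 in mock LMW, 8.49 in mock HMW, 4.24 in 10 Gy LMW and 8.89 in 10 Gy HMW. Its difference was 4.44 (SE 0.74, limma adjusted p = 0.00411), and the wide error came with WT pairs that disagreed, 0.00 for mock and 3.95 for 10 Gy. ASPM, a spindle pole protein, measured 6.84 in mock LMW, 9.96 in mock HMW, 5.05 in 10 Gy LMW and 8.94 in 10 Gy HMW, a difference of 3.50 (SE 0.25, limma adjusted p = 0.00027). A second, dimmer ASPM probe set gave -0.16, so the ASPM result rested on the brighter one. ATRX, a chromatin remodeller, was at 5.33 in mock LMW, 8.87 in mock HMW, 6.15 in 10 Gy LMW and 9.33 in 10 Gy HMW. Its difference was 3.36, and 2 further ATRX probe sets gave 2.32 and 2.50.

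The next genes were well above the filter level in most pools. COL4A5, a basement membrane collagen chain, was at 7.60 in mock LMW, 10.47 in mock HMW, 7.37 in 10 Gy LMW and 10.83 in 10 Gy HMW. Both heavy pools stood above both light ones, with a mean difference of 3.16 (SE 0.24, limma adjusted p = 0.00028), a 8.97-fold difference. CENPF, a kinetochore protein of dividing cells, was at 6.61 in mock LMW, 9.67 in mock HMW, 6.18 in 10 Gy LMW and 9.32 in 10 Gy HMW, and its pairs differed by 3.06 and 3.14. AKAP9, the centrosome and Golgi anchor of protein kinase A, was at 5.68 in mock LMW, 9.19 in mock HMW, 6.79 in 10 Gy LMW and 9.50 in 10 Gy HMW. Its difference of 3.11 exceeded those of the WT pairs, 0.64 and 1.64. TPR, which forms the basket of the nuclear pore, was at 7.18 in mock LMW, 10.18 in mock HMW, 7.55 in 10 Gy LMW and 10.50 in 10 Gy HMW, and ITGA2, the collagen-binding integrin subunit, at 8.15 in mock LMW, 11.38 in mock HMW, 8.62 in 10 Gy LMW and 11.26 in 10 Gy HMW. For both genes each HMW value lay above each LMW value, and the differences were 2.98 (SE 0.18, limma adjusted p = 0.00026) and 2.93 (SE 0.19, limma adjusted p = 0.00027). The mock LMW value of AKAP9 was below 6, as were single LMW values of ASPM, ATRX and BOD1L1, so the sizes for these genes are uncertain too. BOD1L1, which protects stalled replication forks, FRYL, a relative of the fly gene furry, and HERC2, a giant ubiquitin ligase, completed the 12 with differences of 3.04, 3.04 and 2.98.

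At the other end the differences were smaller. CTSZ, the lysosomal protease cathepsin Z, measured 9.58 in mock LMW, 6.87 in mock HMW, 8.10 in 10 Gy LMW and 7.49 in 10 Gy HMW. Its mean difference of -1.66 (SE 0.41, limma adjusted p = 0.0151) came mainly from the mock pair, and its other probe set gave -0.16. TNKS2, a poly-ADP-ribosylating enzyme of the tankyrase family, was at 9.03 in mock LMW, 7.69 in mock HMW, 8.41 in 10 Gy LMW and 6.95 in 10 Gy HMW. Both LMW values exceeded both HMW values, with a difference of -1.40 (SE 0.16, limma adjusted p = 0.00131), while the WT pairs were at 0.16 and 0.18. Another TNKS2 probe set gave -0.48. HIRA, the chaperone that deposits histone H3.3, was at 9.08 in mock LMW, 7.76 in mock HMW, 8.80 in 10 Gy LMW and 7.46 in 10 Gy HMW, with -1.32 and -1.34 in the pairs. SCO2, which delivers copper to cytochrome c oxidase, was the brightest of the group at 11.55 in mock LMW, 10.22 in mock HMW, 11.53 in 10 Gy LMW and 10.40 in 10 Gy HMW. Its pools did not overlap, and it differed by -1.23 (SE 0.11, limma adjusted p = 0.00061). SIVA1, a pro-apoptotic adaptor, differed by -1.28, and the deacetylase HDAC5 by -1.23. USF1, an E-box transcription factor, was at -1.22, the 2-hydroxyacyl-CoA lyase HACL2 at -1.19 and DCAKD, a predicted dephospho-CoA kinase, at -1.19. CBLC, a ubiquitin ligase of the CBL family, was at -1.18, and AP1S1, a subunit of the AP-1 clathrin adaptor, at -1.16. SCRN2 differed by -1.29 on the probe set used, but by 0.01 on its other one.

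**Figure D2:**
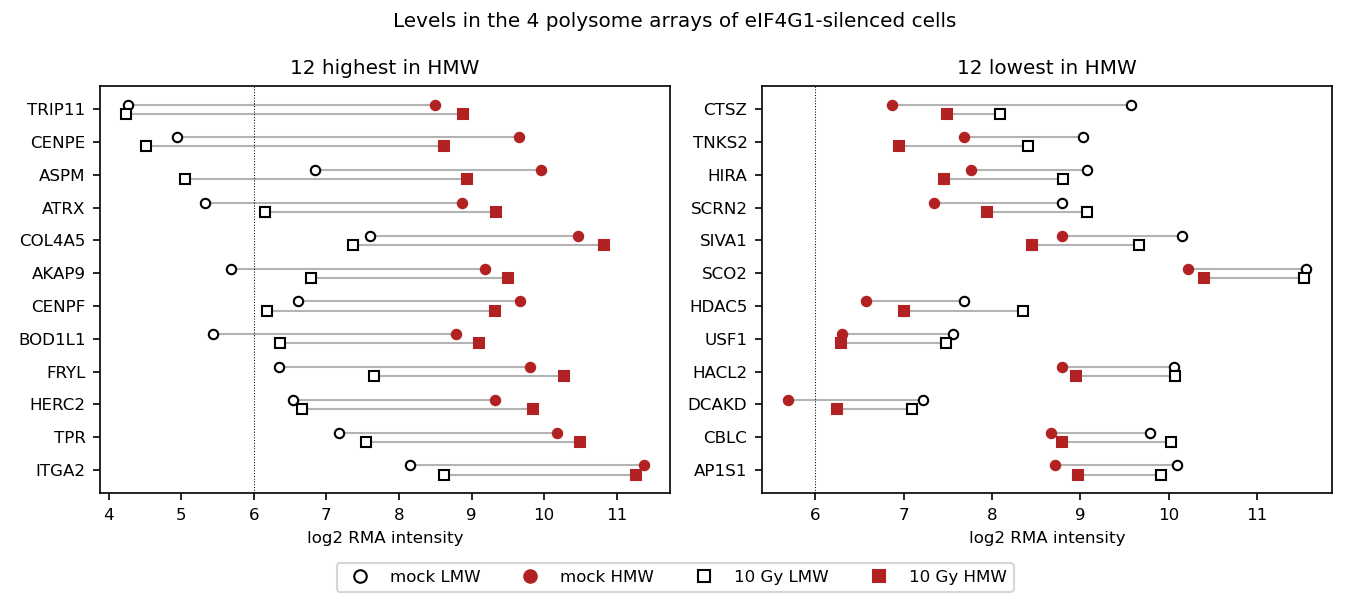
Log2 RMA intensity (x axis) of the 12 highest genes (left) and the 12 lowest genes (right) in the 4 polysome arrays of 4GKD cells; open symbols are LMW, red symbols HMW, circles mock, squares 10 Gy, and the dotted line is log2 6. On the left every red symbol lies to the right of its open partner and several LMW values are below 6, while on the right the order is turned and CTSZ has a much wider mock pair than 10 Gy pair.

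Gene size and the base composition of the start went with the position in the gradient. Among genes with a RefSeq start in the GRCh38.p14 table, the median HMW minus LMW in 4GKD cells was -0.31 for genes spanning under 3 kb of genome, -0.37 from 3 to under 10 kb, -0.21 from 10 to under 30 kb, 0.15 from 30 to under 100 kb, 0.39 from 100 to under 300 kb and 0.35 at 300 kb or more. Of the genes under 3 kb, 3.12% were called higher and 39.9% lower, and from 100 to under 300 kb the shares were 39.5% and 7.15%. The 200 highest called genes with a start in that table had a median span of 107 kb and the 200 lowest 10.7 kb, against 30.5 kb for all. Span includes introns and is only a rough stand-in for the length of the coding sequence, which was not used here. The GC content of the first 50 bases ran the other way: the median difference was 0.20 where it was under 50%, -0.02 from 60% to under 70% and -0.21 at 80% or more. The WT medians went from 0.08 to -0.17 over the same GC bins and from -0.57 to 0.47 between the spans under 3 kb and from 100 to under 300 kb. These are descriptions across genes, which share arrays and base composition, and span and GC were not separated from each other.

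**Figure D3:**
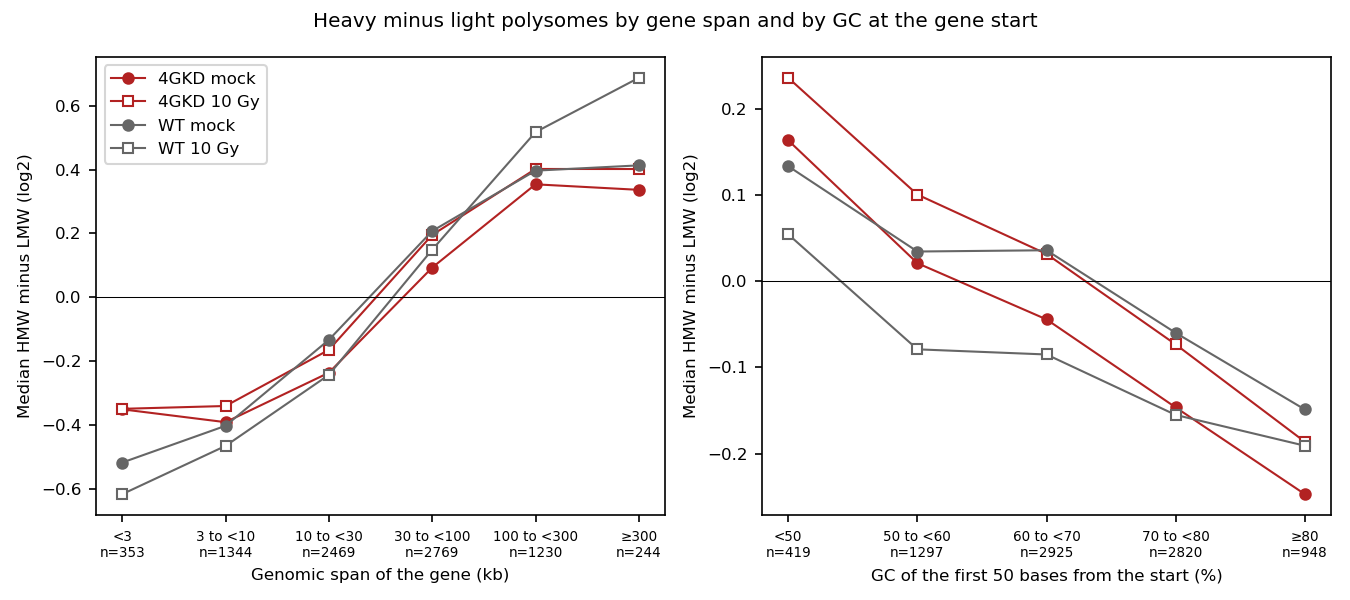
Median HMW minus LMW (log2, y axis) of genes grouped by genomic span in kb (left) and by GC content of the first 50 bases from the annotated start (right), for the mock and 10 Gy pairs of 4GKD cells (red) and of WT cells (grey); n is the number of genes in a bin. All 4 lines lie below 0 for genes under 3 kb and above 0 from 30 kb, and all 4 are lowest in the bin of 80% GC or more.

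Counts of called list members are read against the shares of all genes, 21.4% higher and 21.7% lower in 4GKD cells. Where a named gene had another probe set with a mean of log2 6 or more, the brightest such set kept the direction in 115 of 118 genes called in 4GKD cells, but the difference was over 1.5 times smaller in 33 of these. The large-protein groups lay far to the heavy side. Of the giant cytoskeletal and scaffold genes, 24 of 31 were higher in HMW of 4GKD cells and the other 7 did not pass, with a median difference of 1.41 against -0.06 for all genes. FRYL (3.04), VPS13C (2.90) and VPS13B (2.80, but 1.07 on another probe set) led the group, and VPS13 proteins are bridges for lipid transfer between membranes. PLEC (0.44), the cytolinker plectin, KIF1B (0.41), a kinesin of vesicle transport, and TLN2 (0.04), which links integrins to actin, were at its lower end and did not pass. Very large ubiquitin enzymes gave 20 of 24 higher, with the other 4 not passing and a median of 1.39. The giant ligases HERC2 (2.98), HERC1 (2.81) and HECTD4 (2.61) were highest, the last with its mock LMW value below 6. UBE4A and UBE4B, which extend ubiquitin chains, and the HECT ligase ITCH differed by less than 0.01 and did not pass. Golgins and other coiled-coil tethers gave 15 of 21 higher and 1 lower at a median of 1.37. TRIP11 was followed by GOLGB1 (2.82) and GOLGA4 (2.34), and GCC1 (-0.47) was the member called lower. GOLGA3 (-0.25) and TMF1 (-0.33, but 2.95 on another probe set) did not pass.

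Centrosome scaffold genes gave 18 of 24 tested members higher in HMW and 1 lower, with a median of 1.29. AKAP9 (3.11), CEP152 (2.61), which starts centriole duplication, and PCNT (2.53), the pericentriolar scaffold, stood at the top. Both LMW values of CEP152 were below 6, so that its size and rank cannot be read. TUBGCP2 (-0.85), a gamma-tubulin complex subunit, was called lower. Its relative TUBGCP4 (-0.35, but 0.38 on another probe set) and ALMS1 (0.09, and 0.77 on another probe set) did not pass. For condensin and cohesin, the ring complexes that compact and join chromosomes, 16 of 20 genes were higher and 1 was lower, with a median of 1.31. The ATPase subunits SMC2 (2.64), SMC1A (2.28) and SMC3 (2.03, and 1.26 on another probe set) were highest. SMC2 measured 6.06 and 8.67 in the mock pools and 5.42 and 8.10 in the 10 Gy pools, LMW first, without overlap between the pools, and with 1 light pool below 6. The condensin II subunit NCAPH2 (-0.99, and -0.44 on another probe set) was lower, while WAPL (0.34) and NCAPG2 (0.45) did not pass. Chromatin remodellers and histone methyltransferases gave 29 of 47 tested members higher in HMW and 2 lower, at a median of 0.76. ATRX, the bromodomain protein BAZ2B (2.31) and the remodeller CHD2 (2.15, and 0.85 on another probe set) led them, and the methyltransferases SUV39H1 (-1.04) and SETD1B (-0.40) were lower. SUV39H1 measured 8.05 and 6.88 in the mock pools and 7.79 and 6.88 in the 10 Gy pools, LMW first.

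Cell division genes lay on both sides. Kinetochore, spindle and cytokinesis genes gave 26 of 53 tested members higher in HMW and 7 lower, a median of 0.46. CENPE, ASPM and CENPF were the highest, and CENPM (-0.70), SPC24 (-0.88), both kinetochore proteins, and CDC20 (-0.72), the activator of the anaphase-promoting complex, the lowest. CDC20 measured 12.54 and 11.84 in the mock pools and 11.10 and 10.37 in the 10 Gy pools, LMW first, with HMW below LMW within each condition and both mock pools above both 10 Gy pools. Nuclear pore genes gave 13 of 28 tested members higher in HMW and 3 lower at a median of 0.35: TPR, RANBP2 (2.32), the cytoplasmic filament protein, and NUP160 (1.44, but 0.04 on another probe set) at the top, and SEC13 (-0.55), NUP85 (-0.58) and NUP62 (-0.58) at the bottom. Of these 28 genes, 11 were called lower in 4GKD than in WT and 0 higher, against 7.19% and 2.85% of all genes. DNA replication genes had 11 of 50 higher, 7 lower and a median of 0.10, with shares near the 21.4% and 21.7% of all genes. The polymerase subunit POLA1 (1.89), topoisomerase TOP2A (1.75) and the kinase activator DBF4 (1.08) were highest, though both LMW values of POLA1 were below 6 and its size cannot be read. POLD2 (-0.86), GINS4 (-0.68) and POLD1 (-0.64), parts of polymerase delta and of the replicative helicase, were lowest. In WT cells 25 of the 50 replication genes were called higher and 7 lower, against 23.8% and 20.9% of all genes. The difference between genotypes was called lower in 4GKD for 12 and higher for 0, against 7.19% and 2.85%. Among cyclins, CDKs and their inhibitors 11 of 41 were higher and 7 lower, from CCNT2 (1.31), RB1 (0.99) and RBL1 (0.98) to CDK5 (-0.75), CDK9 (-0.86) and CCND3 (-0.92), again near the 21.4% and 21.7% of all genes. CCNT2 and RBL1 had both LMW values below 6. The histone list gave 3 of 12 lower with the other 9 not passing: H2AX (-0.64), H2AJ (-0.67) and H1-10 (-0.82).

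DNA repair genes also lay on both sides. Of the PIKK kinases and damage mediators, 14 of 24 were higher, 1 was lower and the median was 0.92. RIF1 (2.55), which limits end resection, PRKDC (2.51), the catalytic subunit of DNA-PK, and ATR (2.21), the kinase of stalled forks, were at the top. PRKDC measured 9.21 and 11.57 in the mock pools and 8.98 and 11.64 in the 10 Gy pools, LMW first, and both heavy pools exceeded both light pools. H2AX (-0.64), whose product marks breaks, was the member called lower, and RAD9A (-0.44) and RNF8 (-0.13) did not pass. Homologous recombination and Fanconi genes gave 9 of 22 tested members higher in HMW and 3 lower, a median of 0.28. BRIP1 (1.93), DNA2 (1.75) and WRN (1.66), all helicases or nucleases of repair, were highest, with both LMW values of BRIP1 and 1 of DNA2 below 6, and MUS81 (-0.73), FANCE (-0.80) and FANCG (-0.95) lowest. Base excision and mismatch repair gave 7 of 24 tested members higher in HMW and 5 lower, near the 21.4% and 21.7% of all genes, at a median of -0.17. The mismatch repair genes PMS1 (1.16), MSH6 (1.06) and MSH3 (0.86) were highest, and the glycosylases NTHL1 (-0.85) and MPG (-0.91) were lower, with APEX2 at -0.58 not passing.

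**Figure D4:**
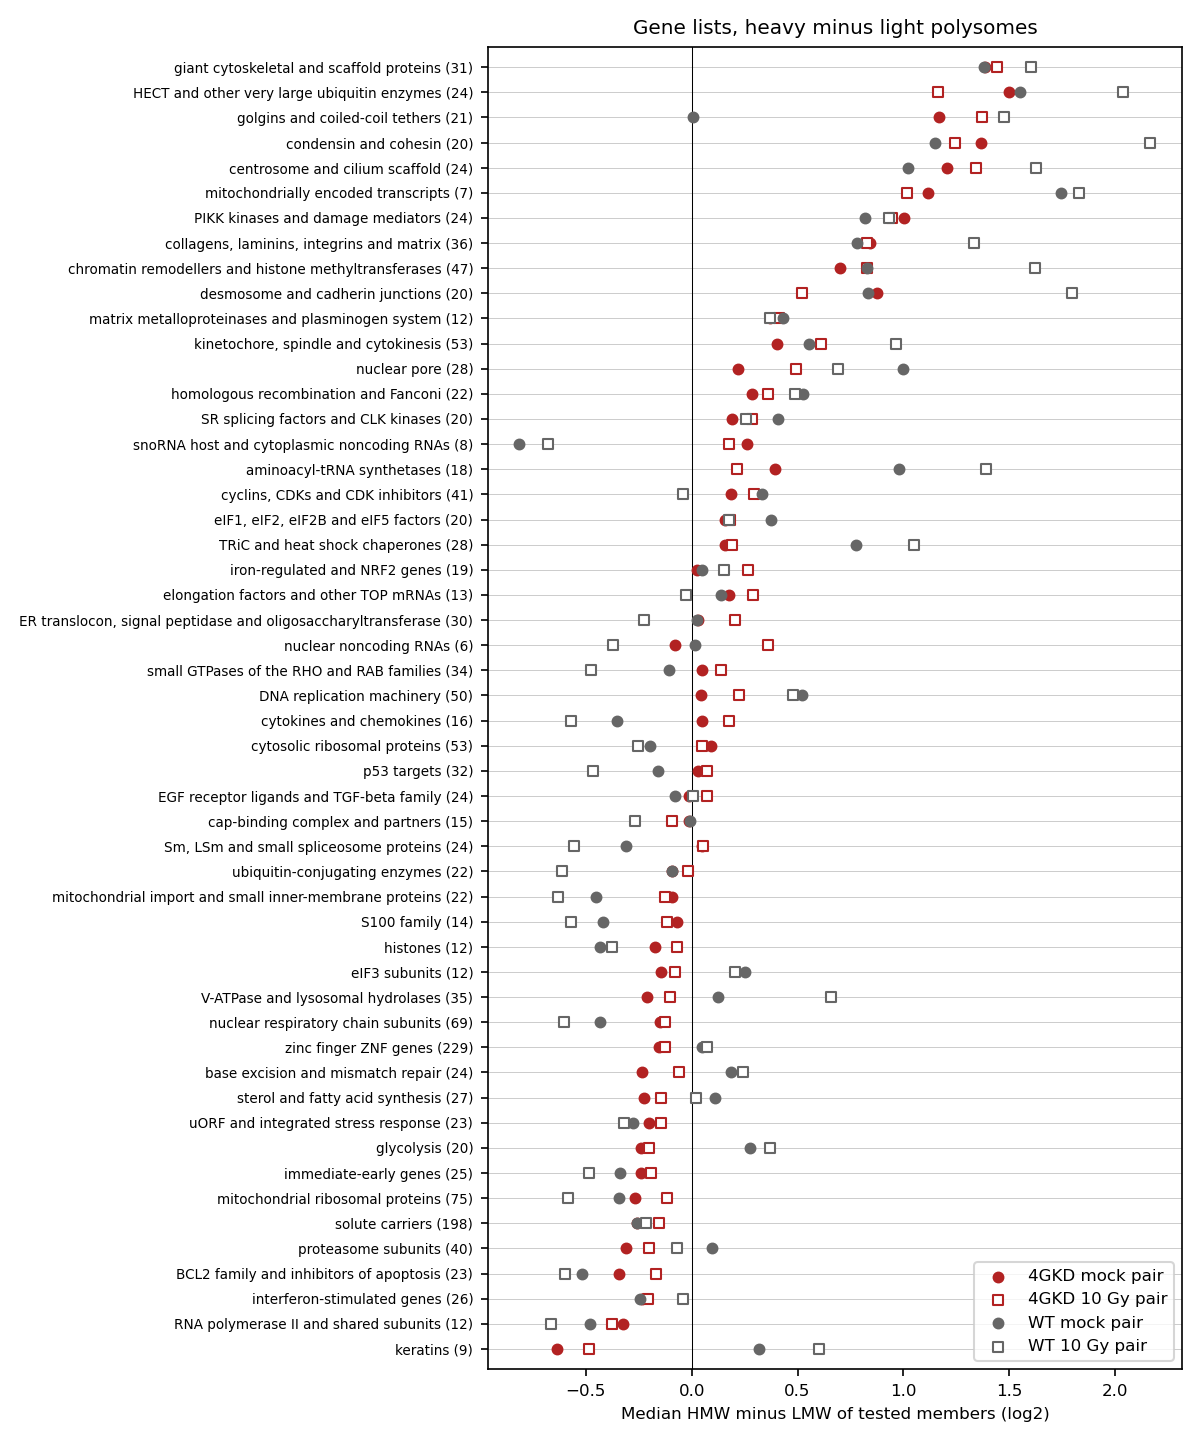
Median HMW minus LMW (log2, x axis) of the tested members of 52 gene lists (number in brackets), for the mock and 10 Gy pairs of 4GKD cells (red, filled and open) and of WT cells (grey, filled and open), ordered by the 4GKD value. Red symbols are at 1.38 and 1.44 for giant cytoskeletal and scaffold genes and at 1.50 and 1.16 for very large ubiquitin enzymes (mock first), and lowest for keratins at -0.64 and -0.49, whose grey symbols lie on the other side of 0; the grey symbols of the aminoacyl-tRNA synthetases lie to the right of the red ones.

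Genes of the matrix and of cell junctions were largely on the heavy side, and keratins on the light side. Collagens, laminins, integrins and other matrix genes gave 23 of 36 tested members higher in HMW and 3 lower, at a median of 0.86. COL4A5, ITGA2 and the glycoprotein TNC (2.79, with both LMW values below 6) were highest, and ITGB5 (-0.58, but -0.04 on another probe set) and the small secreted inhibitors TIMP1 (-0.63) and TIMP3 (-0.80, and -0.21 on another probe set) lowest. Of matrix metalloproteinase, ADAM and plasminogen genes 5 of 12 were higher and the other 7 did not pass, led by PLAT (1.35), ADAM10 (1.26) and ADAM9 (1.14). Desmosome and cadherin junction genes gave 12 of 20 tested members higher in HMW and 1 lower, a median of 0.75. The desmosomal cadherins DSG3 (2.61, and 1.74 on another probe set) and DSC3 (2.37) and the plaque protein DSP (1.92) led. The plakophilin PKP3 (-0.74, and -0.32 on another probe set) was lower. DSG3 measured 7.35 and 9.91 in the mock pools and 7.68 and 10.33 in the 10 Gy pools, LMW first, without overlap between pools.

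Of the 9 keratins tested, 7 were lower in HMW of 4GKD cells and KRT10 and KRT15 did not pass, with a median of -0.57. KRT5, a basal keratin, was among the most abundant mRNAs, at 13.49 in mock LMW, 13.20 in mock HMW, 13.77 in 10 Gy LMW and 13.41 in 10 Gy HMW. Its light pools were above its heavy pools in both pairs, by -0.29 and -0.36 (limma adjusted p = 0.0279). In WT cells the same gene was higher in HMW, by 0.70 and 1.05. KRT8, a simple epithelial keratin, was at 10.53 in mock LMW, 9.82 in mock HMW, 10.58 in 10 Gy LMW and 9.92 in 10 Gy HMW, a difference of -0.69 (SE 0.15, limma adjusted p = 0.0103) against 0.35 and 0.86 in the WT pairs. KRT16, a keratin of activated keratinocytes, was at 8.13 in mock LMW, 7.30 in mock HMW, 7.98 in 10 Gy LMW and 7.15 in 10 Gy HMW, -0.83 in 4GKD cells. KRT7 and KRT80 were at -0.32 and -0.97, and KRT14 and KRT18, named after their values were seen, at -0.57 and -0.58. In WT cells 5 keratins were called higher and 2 lower, at a median of 0.46. The difference between genotypes passed for 6 of the 9, all lower in 4GKD cells, with values from -1.38 for KRT14 to -0.77 for KRT7, for which another probe set gave -0.04. The share of all genes called lower in 4GKD than in WT was 7.19%, and called higher 2.85%. The summed intensity of the basal marker list, of which KRT5 and KRT14 are part, was 29531 to 35847 in the light and 32953 to 38706 in the heavy pools of 4GKD cells, and its part in the keratin values was not tested. Without the 4GKD mock pair 0 keratins were called lower by limma, and without the 4GKD 10 Gy pair 2.

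In the translation machinery the lists stood near the centre of all genes, with wide spread inside each. Cap-binding complex genes and their partners gave 3 of 15 tested members higher in HMW and 2 lower, at a median of 0.01 and near the 21.4% and 21.7% of all genes. EIF4G1 itself, called higher, was described above and is not counted in this list. EIF4E (0.75), the partner of eIF4G1 at the cap, PAIP1 (0.75) and NCBP2 (0.59) were higher, and the eIF4E kinase MKNK2 (-0.51) and the eIF4E inhibitor EIF4EBP1 (-0.84) lower. EIF4E measured 8.87 and 9.49 in the mock pools and 8.19 and 9.09 in the 10 Gy pools, LMW first. MKNK1 (-0.39) did not pass. eIF3 subunits divided into 5 of 12 higher and 4 lower: EIF3A (2.00), EIF3J (0.93) and EIF3H (0.64) against EIF3F (-0.31), EIF3B (-0.52) and EIF3G (-0.54). eIF1, eIF2, eIF2B and eIF5 genes gave 5 of 20 tested members higher in HMW and 5 lower, which is also near those shares. The subunit-joining GTPase EIF5B (2.39), the kinase EIF2AK2 (1.39, and 0.57 on another probe set) and EIF2A (1.05) led, and EIF2D (-0.53), EIF2B4 (-0.70) and EIF6 (-0.75) were lowest. Elongation factors and other mRNAs with a terminal oligopyrimidine (TOP) start gave 5 of 13 higher and 3 lower, with NAP1L1 (0.95), PABPC1 (0.61) and NACA (0.55) above and EEF1D (-0.27), EEFSEC (-0.59) and EIF5A (-0.76) below. NACA gave -0.47 when probe sets prone to cross-hybridise were left out.

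Cytosolic ribosomal protein mRNAs are known for the TOP start, a C followed by a run of pyrimidines, which ties their translation to the growth kinase mTOR. Their starts are shown because members with the same kind of start lay on both sides of the comparison. The windows are from RefSeq on GRCh38.p14, 10 bases before the annotated start and 20 from it, 5′ to 3′ on the gene's strand, with the pyrimidine run from the start in capitals. The first 3 are the highest ribosomal protein genes in 4GKD cells and the last 3 the lowest, though RPL27A did not pass.
RPS24: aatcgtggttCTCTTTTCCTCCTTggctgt
RPS25: gcagcgcttcCTTTTTgtccgacatcttga
RPL31: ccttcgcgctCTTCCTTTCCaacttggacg
RPL27A: gaaggccttcCTTTTTCgtctgggctgcca
RPS9: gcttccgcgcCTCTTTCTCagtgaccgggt
FAU: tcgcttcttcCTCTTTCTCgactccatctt
The windows cover RPS24 at chr10:78033853-78033882 (+ strand), RPS25 at chr11:119018324-119018353 (- strand), RPL31 at chr2:101002279-101002308 (+ strand), RPL27A at chr11:8682782-8682811 (+ strand), RPS9 at chr19:54200848-54200877 (+ strand) and FAU at chr11:65122115-65122144 (- strand), and each holds the first bases of the transcript's first exon. A start was counted as TOP-like where its first base was C and at least 4 further pyrimidines followed, read on the gene's strand. This held for 33 of the 47 ribosomal protein genes with a window, for 5.53% of the 8409 tested genes with a window and for 4.04% of all 27305 windows in the table.

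Of the 53 ribosomal protein genes tested, 13 were higher in HMW of 4GKD cells and 2 lower, at a median of 0.06. RPS24, of the small subunit, measured 12.57 in mock LMW, 13.36 in mock HMW, 12.73 in 10 Gy LMW and 13.41 in 10 Gy HMW. Both heavy pools exceeded both light pools, by 0.79 and 0.68 (limma adjusted p = 0.00115), where the WT pairs were at -0.01 and -0.10. RPS25 was at 11.99 in mock LMW, 12.73 in mock HMW, 12.02 in 10 Gy LMW and 12.64 in 10 Gy HMW, a difference of 0.68 (SE 0.09, limma adjusted p = 0.00219), and RPL31 differed by 0.49. FAU, which encodes RPS30 fused to a ubiquitin-like protein, was at 13.49 in mock LMW, 13.09 in mock HMW, 13.56 in 10 Gy LMW and 13.12 in 10 Gy HMW, lower by -0.40 and -0.44 (limma adjusted p = 0.00432). RPS9 was at -0.33. RPL27A, at -0.32, did not pass, since its pairs had opposite signs, 0.47 and -1.11. Its probe set was dim, with a mean of log2 7.88, where those of RPS24, RPS25 and FAU had means of 13.30, 12.84 and 13.40. In WT cells 1 of the 53 was called higher and 27 lower, against 23.8% and 20.9% of all genes, with a median of -0.21 that turned to 0.05 under a loess correction of each difference. The difference between genotypes was called higher in 4GKD for 15 of the 53, against 2.85% of all genes. The gap between the medians depended on the normalisation. Under loess they were 0.08 in 4GKD and 0.05 in WT cells, and under quantile normalisation 0.03 and -0.18. By start, the 33 TOP-like ribosomal protein genes had a median of 0.02 in 4GKD and -0.23 in WT cells, the 14 others 0.02 and -0.19, and the 432 TOP-like genes of other kinds -0.09 and -0.13. Ribosomal protein probe sets can also read pseudogenes and near copies: for RPL10A, RPL18, RPL29, RPL37A, RPL38, RPS12, RPS15A and RPS19 another probe set had the opposite sign in 4GKD cells. With probe sets prone to cross-hybridise left out, RPS25 had no probe set. Those left for RPS24 and RPL31 had means of log2 4.12 and 5.31, so not all members were tested. Among those that were, 1 was called higher. Without the 4GKD mock pair that number was also 1, and without the 4GKD 10 Gy pair 2.

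The list of aminoacyl-tRNA synthetases, which load tRNAs with amino acids, gave 8 of 18 higher and 3 lower, at a median of 0.24. It also holds AIMP1, a partner protein of the synthetases that is not itself one. EPRS1, the bifunctional enzyme for glutamate and proline, was at 11.85 in mock LMW, 13.19 in mock HMW, 11.64 in 10 Gy LMW and 12.94 in 10 Gy HMW. Its heavy pools exceeded its light pools by 1.33 and 1.30 (limma adjusted p = 0.00066). LARS1 (1.39) and AARS1 (0.87), for leucine and alanine, were also higher, and WARS1 (-0.42), YARS1 (-0.48) and FARSA (-0.84), for tryptophan, tyrosine and phenylalanine, lower. In WT cells 15 of 18 were called higher, against 23.8% of all genes, at a median of 1.22. The pairs of EPRS1 stood there at 3.92 and 3.51, those of LARS1 at 2.79 and 2.97, and those of FARSA at -0.13 and 0.36. The difference between genotypes was called lower in 4GKD for 14 of the 18, where 7.19% of all genes were. It was -2.40 for EPRS1 (SE 0.18, limma adjusted p = 0.00573), -1.69 for AARS1 and -1.49 for LARS1, and 2 other EPRS1 probe sets gave -0.89 and -1.48.

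**Figure D5:**
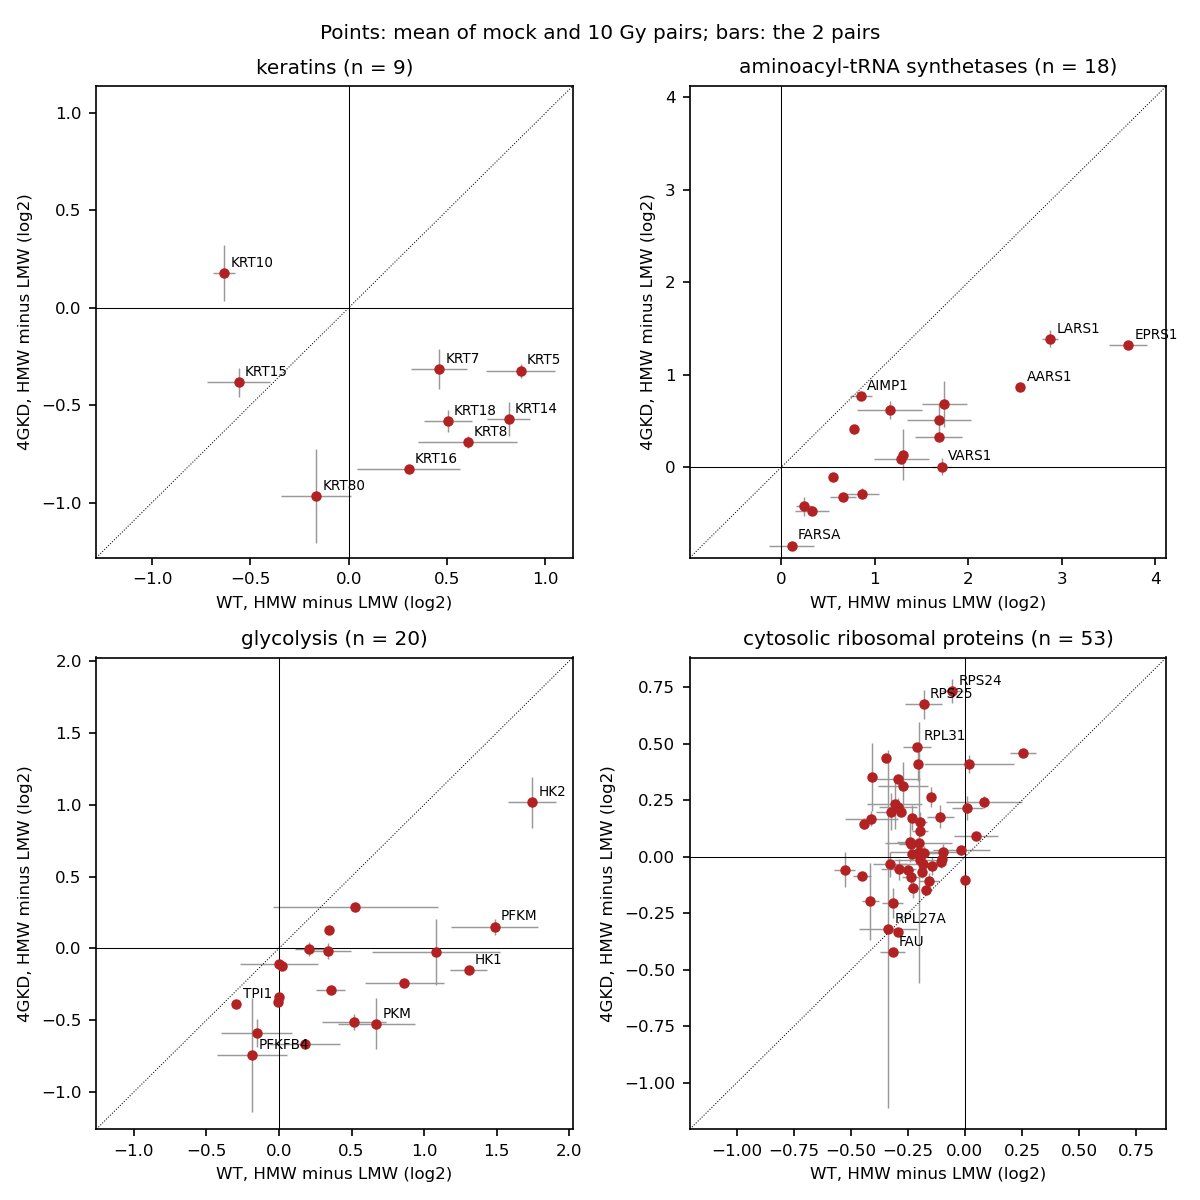
HMW minus LMW (log2) in WT cells (x axis) and in 4GKD cells (y axis) for each tested keratin, aminoacyl-tRNA synthetase, glycolytic gene and cytosolic ribosomal protein gene; points are means of the mock and 10 Gy pairs, bars run to the 2 pair values and the dotted line is equality. All members of the synthetase list lie below the dotted line, most keratins lie below it with KRT10 and KRT15 above, and most ribosomal protein genes lie above it.

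Mitochondrial genes differed by where they are encoded. Transcripts of the mitochondrial genome, made and translated inside the organelle, were called higher in HMW for all 7 measured (median 1.03), from ND2 (1.72), COX3 (1.24) and ATP6 (1.23) to ND4 (1.02), COX2 (0.67) and COX1 (0.53). COX1 measured 13.99 and 14.57 in the mock pools and 14.20 and 14.68 in the 10 Gy pools, LMW first. Their WT median was 1.83, and 5 of the 7 were called lower in 4GKD than in WT, as 7.19% of all genes were. These are respiratory chain subunits named by the array's annotation, and the ribosomes that translate them are those of the mitochondrion. Nuclear genes of the respiratory chain gave 10 of 69 tested members higher in HMW and 24 lower, a median of -0.14. NDUFA5 (1.31), CYCS (0.73), which is cytochrome c, and NDUFS1 (0.69) were highest, and ATP5F1D (-0.86), NDUFB7 (-0.99) and NDUFS7 (-1.06) lowest. NDUFA5 measured 8.46 and 9.74 in the mock pools and 8.54 and 9.88 in the 10 Gy pools, LMW first, and its WT pairs were at 0.03 and -0.43. In WT cells 5 of the 69 were called higher and 50 lower, against 23.8% and 20.9% of all genes. The difference between genotypes was called higher in 4GKD for 18 and lower for 3, against 2.85% and 7.19%. Mitochondrial ribosomal proteins gave 6 of 75 tested members higher in HMW and 28 lower, a median of -0.21, from MRPL19 (1.06), MRPS31 (0.83) and MRPL1 (0.82) to MRPS12 (-0.83), MRPL38 (-0.90) and MRPL4 (-0.93). Another MRPS31 probe set gave 0.10. Import and small inner-membrane proteins gave 4 of 22 tested members higher in HMW and 8 lower, with TIMM9 (0.59) and the receptor TOMM70 (0.58) above and MICOS13 (-0.70) and TIMM50 (-1.02) below.

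Glycolytic genes were on the light side in 4GKD cells: 1 of 20 was higher, 9 were lower and the median was -0.20. HK2 (1.02), the inducible hexokinase, was the member called higher, but another of its probe sets gave 0.08. The regulatory enzyme PFKFB4 (-0.74), the phosphofructokinase PFKL (-0.67) and ALDOC (-0.59) were lowest. PFKL measured 9.15 and 8.48 in the mock pools and 9.34 and 8.67 in the 10 Gy pools, LMW first, and its light pools exceeded its heavy pools. In WT cells 11 of the 20 were called higher and 1 lower (median 0.34), against 23.8% and 20.9% of all genes, and 7 were called lower in 4GKD than in WT, against 7.19%, among them PFKM (-1.34). Without the 4GKD mock pair, and without the 4GKD 10 Gy pair, 0 members were called lower by limma. Sterol and fatty acid synthesis gave 7 of 27 tested members higher in HMW and 7 lower, near the 21.4% and 21.7% of all genes: ACACA (1.25, but -0.37 on another probe set), SC5D (1.22) and FASN (1.16) above, and the sterol sensor chaperone SCAP (-0.98) and PMVK (-0.89) below. V-ATPase and lysosomal hydrolase genes gave 5 of 35 tested members higher in HMW and 7 lower, also near those shares, from the cholesterol exporter NPC1 (1.69) to ATP6V0D1 (-0.84), ATP6V0B (-0.87) and CTSZ. Iron-regulated and NRF2 genes gave 6 of 19 tested members higher in HMW and 6 lower. NFE2L2 (0.93), which encodes NRF2, and the transferrin receptor TFRC (0.80) were among the highest, and TKT (-0.60) and SRXN1 (-0.68) the lowest. For TFRC the median over its probe sets was -0.27. Solute carriers gave 27 of 198 tested members higher in HMW and 45 lower, where the share called lower was near the 21.7% of all genes. They ran from SLC4A7 (1.73), SLC38A1 (1.29) and SLC36A4 (1.13) to SLC25A1 (-1.04), SLC35E4 (-1.11) and SLC39A7 (-1.14), with 0.37 on another SLC4A7 probe set and 0.64 on another SLC38A1 set. The 10 Gy LMW value of SLC36A4 was below 6.

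Protein quality control genes also divided. Proteasome subunits gave 6 of 40 tested members higher in HMW and 19 lower, a median of -0.25. PSMD12 (1.03) and PSMD1 (0.70), both of the regulatory particle, were highest, while the immunoproteasome subunits PSMB9 (-0.74) and PSMB10 (-0.74) and PSMD3 (-0.76) were lowest. Chaperones of the TRiC and heat shock groups gave 8 of 28 tested members higher in HMW and 2 lower. HSPH1 (1.49), the ER chaperone HSPA5 (1.43) and DNAJC7 (0.97) were highest, and the small heat shock protein HSPB1 (-0.46) and DNAJB1 (-0.67) lower. In WT cells 19 of the 28 were called higher and 5 lower at a median of 0.97, against 23.8% and 20.9% of all genes. The difference between genotypes was called lower in 4GKD for 14 and higher for 3, against 7.19% and 2.85%, and the lower ones included HSPA5 (-1.20) and the TRiC subunit CCT7 (-1.10). HSPA5 measured 11.81 and 13.20 in the mock pools and 11.62 and 13.09 in the 10 Gy pools, LMW first, with both HMW values above both LMW values, and its WT pairs were at 2.63 and 2.63. Ubiquitin-conjugating enzymes gave 1 of 22 higher, UBE2V2 (1.17), and 4 lower, with UBE2L6 (-0.73), UBE2J2 (-0.86) and UBE2S (-0.88) at the end. Genes of the ER translocon, signal peptidase and oligosaccharyltransferase gave 11 of 30 tested members higher in HMW and 8 lower. SEC63 (1.63), TRAM1 (0.97, and 0.33 on another probe set) and SEC62 (0.90) led, and the channel subunit SEC61A1 (-0.55), OST4 (-0.59) and SSR4 (-0.77) were lowest.

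In the lists of RNA synthesis and splicing, members lay on both sides. RNA polymerase II subunits gave 3 of 12 tested members higher in HMW and 7 lower, a median of -0.36: the 2 largest subunits POLR2A (0.87) and POLR2B (0.72), with POLR2K (0.72), against POLR2I (-0.55), POLR2C (-0.56) and POLR2E (-0.84). POLR2E measured 11.69 and 10.95 in the mock pools and 11.86 and 10.92 in the 10 Gy pools, LMW first. Sm, LSm and small spliceosome proteins gave 4 of 24 tested members higher in HMW and 7 lower, near the 21.4% and 21.7% of all genes, from SNRPB2 (0.80), LSM6 (0.64) and SF3B6 (0.49) to SNRPA (-0.75) and LSM2 (-0.88). SR splicing factors and CLK kinases gave 5 of 20 tested members higher in HMW and 1 lower, with SON (1.05), SRSF11 (0.91) and SRRM1 (0.89) at the top and CLK3 (-0.53) lower. Zinc finger genes with a ZNF symbol gave 33 of 229 tested members higher in HMW and 49 lower, a median of -0.14, from ZNF638 (2.51), ZNF292 (2.23) and ZNF91 (1.90) to ZNF689 (-1.04), ZNF324 (-1.04) and ZNF581 (-1.05), and the share called lower was near that of all genes. ZNF292 had both LMW values below 6, and ZNF91 that of 10 Gy. snoRNA host and cytoplasmic noncoding RNAs gave 3 of 8 higher with the other 5 not passing. CRNDE (0.71), NORAD (0.63), a decoy for PUMILIO proteins, and ZFAS1 were those called. CRNDE measured 6.65 and 7.03 in the mock pools and 5.97 and 7.01 in the 10 Gy pools, LMW first. In WT cells 7 of the 8 were called lower (20.9% of all genes were), and 4 were called higher in 4GKD than in WT (2.85% of all genes were). ZFAS1 was named after its values were seen. The list of nuclear noncoding RNAs had 1 of 6 called higher, OIP5-AS1 (0.91, but 0.32 on another probe set), while MEG3 (-0.12) and HCG18 (-0.21) did not pass.

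Signalling and stress genes gave mixed results. p53 targets gave 5 of 32 tested members higher in HMW and 9 lower, near the 21.4% and 21.7% of all genes, at a median of 0.03. The death receptor FAS (1.04) and KITLG (0.94) were called higher, KITLG with 3 of its 4 values below 6, and RRM2B (0.80), a ribonucleotide reductase subunit, did not pass. SERTAD1 (-0.83), the nuclease AEN (-0.89) and the kinase PLK3 (-0.89) were lowest. BCL2 family genes and inhibitors of apoptosis gave 5 of 23 tested members higher in HMW and 8 lower, a median of -0.27. BIRC6 (2.58), a giant inhibitor of apoptosis, BNIP2 (0.93) and XIAP (0.75), a caspase inhibitor, were highest, and BIK (-0.80), BAD (-0.90) and BOK, all promoters of cell death, lowest, with BOK 2-fold lower. XIAP measured 8.32 and 8.84 in the mock pools and 8.14 and 9.11 in the 10 Gy pools, LMW first, and BAD 9.11 and 8.21 in the mock pools and 9.02 and 8.13 in the 10 Gy pools, LMW first. Their pools did not overlap, in opposite directions. Genes with upstream open reading frames or in the integrated stress response gave 3 of 23 tested members higher in HMW and 9 lower, a median of -0.19. HSPA5, IFRD1 (0.96) and the cystine transporter SLC7A11 (0.93) were above, and the amino acid transporter SLC7A5 (-0.69), SESN2 (-0.81) and TRIB3 (-0.89) below. Of the immediate-early genes 8 of 25 were lower and the other 17 did not pass, with JUND (-0.60), FOSL1 (-0.63) and the phosphatase DUSP4 (-0.64, but 0.03 on another probe set) lowest. JUN was at 0.29, but at -0.64 on another probe set.

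Interferon-stimulated genes gave 8 of 26 tested members higher in HMW and 10 lower, a median of -0.29. The large antiviral proteins SAMD9 (2.56), DDX60 (2.26) and PARP14 (2.16) were highest, and the ubiquitin-like ISG15 (-0.77), IFI35 (-0.77) and the transcription factor IRF7 (-0.90) lowest. SAMD9 measured 5.91 and 8.75 in the mock pools and 6.79 and 9.07 in the 10 Gy pools, LMW first, and ISG15 9.39 and 8.57 in the mock pools and 9.87 and 9.15 in the 10 Gy pools, LMW first. In both genes the pools did not overlap, and both LMW values of DDX60 and the mock LMW value of SAMD9 were below 6. Cytokines and chemokines gave 5 of 16 tested members higher in HMW and 3 lower, against 21.4% and 21.7% of all genes. IL18 (0.92), CXCL8 (0.80) and CCL20 (0.68) were highest, and CSF3 (-0.48), MIF (-0.49) and IL32 (-0.60) lowest. CXCL8, a neutrophil chemoattractant, measured 9.29 and 10.17 in the mock pools and 9.64 and 10.37 in the 10 Gy pools, LMW first, and its WT pairs were at -0.23 and -0.80. In WT cells 10 of the 16 were called lower, against 20.9% of all genes, and 5 were called higher in 4GKD than in WT, against 2.85%. EGF receptor ligands and the TGF-beta family gave 4 of 24 tested members higher in HMW and 4 lower, from TGFB2 (1.36), EREG (1.20) and INHBA (1.15) to ERBB2 (-0.69), TGFB1 (-0.74) and ID3 (-0.89), with both LMW values of TGFB2 below 6. Small GTPases gave 9 of 34 tested members higher in HMW and 8 lower, from RAB27B (1.10), RAB8B (0.85) and RAB13 (0.84) to RHOF (-0.90), RAB1B (-0.97) and RHOC (-1.03). The counts of the EGF and TGF-beta list and of the small GTPases were near the shares of all genes. The S100 list, which also holds the S100P-binding protein gene, had 1 of 14 lower, S100A16 (-0.57), with the other 13 not passing.

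Over all genes, the comparison of the silenced with the WT cells gave 730 genes with a lower HMW minus LMW in 4GKD cells (7.19% of those tested) and 289 with a higher one (2.85%). In every one of these 1019 genes both 4GKD pairs lay beyond both WT pairs. The test favours such genes, as disagreement between the pairs of a genotype widens its error, so this adds no evidence. Of the 730, 692 were higher in HMW in both WT pairs, and their median was 1.14 in WT and -0.04 in 4GKD. Of the 289, 189 were lower in HMW in both WT pairs, and the medians were -0.34 in WT and 0.75 in 4GKD. TOP2A, which untangles sister chromatids, was at 9.42 in mock LMW, 11.29 in mock HMW, 8.94 in 10 Gy LMW and 10.57 in 10 Gy HMW. The heavy pools exceeded the light ones by 1.87 and 1.63, against 4.43 and 3.56 in WT, a difference of -2.24 (SE 0.29, limma adjusted p = 0.00937). A second TOP2A probe set, almost as bright, had 2.02 in 4GKD and 2.41 in WT cells, a difference of only -0.39, so the size rested on the probe set used. MCM2, a subunit of the replicative helicase, was at 10.14 in mock LMW, 9.98 in mock HMW, 9.07 in 10 Gy LMW and 9.31 in 10 Gy HMW. Its 4GKD pairs were -0.16 and 0.24 and its WT pairs 1.85 and 2.21, so that the position on the heavy side seen in WT was not seen in 4GKD, a difference of -1.98 (SE 0.22, limma adjusted p = 0.00664). UBE2O, a large ubiquitin-conjugating enzyme, behaved in the same manner, 0.22 and 0.06 against 2.14 and 2.41. NAA15 (-2.21), the anchor of an N-terminal acetyltransferase, CC2D1A (-2.06), a protein of endosomal sorting, the purine synthesis enzyme GART (-2.01) and SGO2 (-1.99), which protects cohesin at centromeres, completed the lowest 8 with EPRS1. Other bright probe sets gave smaller differences, -0.72 and -0.47 for NAA15, -0.54 for SGO2 and -1.18 for CC2D1A. The next GART set gave -2.16, but a further one with a mean of log2 7.42 gave -0.31.

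Among genes with a higher value in 4GKD cells, DYNLT3, a dynein light chain, was at 6.97 in mock LMW, 8.50 in mock HMW, 7.08 in 10 Gy LMW and 8.64 in 10 Gy HMW. Both heavy pools stood above both light ones, while the WT pairs were -0.50 and -0.34, and the difference between genotypes was 1.97 (SE 0.24, limma adjusted p = 0.0085). KIAA1143 (2.34) was highest, though its second probe set gave 0.51. UFM1 (1.83, and 1.01 on another probe set), a ubiquitin-like modifier, and NEK7 (1.74), a mitotic kinase that also serves the inflammasome, followed AKAP9 (1.97). For ZNF267 (1.80), DNAJC24 (1.75) and TMEM267 (1.73) both light pools of 4GKD cells were below log2 6, so their sizes are uncertain. The number of genes called in this comparison depended on the model: limma called 0 without the intensity trend of the variance (1030 higher and 1644 lower at an unadjusted p below 0.05), and 16 higher and 167 lower when all 12 arrays were fitted. Without the 4GKD mock pair 10 and 99 were called, without the 4GKD 10 Gy pair 9 and 113, without the WT mock pair 1952 and 2489, and without the WT 10 Gy pair 993 and 1498. Across the whole set, 2589 genes were called with the same sign in both genotypes, 59.1% of the 4GKD and 57.1% of the WT calls, and 123 with opposite signs, 80 of them lower in 4GKD and higher in WT. In WT 2415 genes (23.8%) were called higher and 2119 (20.9%) lower, a split of 53.3% higher that became 69.4% under loess, which moved the WT median from -0.09 to 0.07.

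The mock and 10 Gy pairs of the silenced cells were then set against each other, with 1 pair each and no test. The 10 Gy pair exceeded the mock pair by 1 or more for 38 genes and fell short by 1 or more for 6, together 0.433% of the genes tested. In WT cells 7.26% of genes passed that size. The median absolute difference between pairs was 0.176 in 4GKD and 0.332 in WT, and the median signed difference in 4GKD was 0.06. These differences, pooled over both genotypes, went into the error of the fit. Among the 8803 genes at log2 6 or more in all 4 arrays of 4GKD cells, 18 and 5 genes passed. ERGIC1, a cargo protein between ER and Golgi, was at 10.80 in mock LMW, 8.58 in mock HMW, 9.12 in 10 Gy LMW and 9.04 in 10 Gy HMW. Its mock pair differed by -2.22 and its 10 Gy pair by -0.08. RCC1, which charges the GTPase Ran, was at 9.65 in mock LMW, 7.29 in mock HMW, 7.34 in 10 Gy LMW and 7.07 in 10 Gy HMW, and RAD23B, a partner of the repair protein XPC, at 11.03 in mock LMW, 10.49 in mock HMW, 9.43 in 10 Gy LMW and 10.45 in 10 Gy HMW. In ERGIC1, CTSZ, RCC1 and RAD23B the mock LMW array had the highest of the 4 values. For RAD23B the other bright probe sets differed little between pairs, with 0.68 in the mock and 0.72 in the 10 Gy pair, and 0.43 and 0.63. Other sets gave -1.58 and -0.25 for ERGIC1 and -0.87 and -0.32 for RCC1. NIPSNAP3A went from -0.59 in the mock pair to 0.79. In the other direction RPL27A (-1.58), MIF-AS1 (-1.46), RPLP2 (-1.15), the mitochondrial superoxide dismutase SOD2 (-1.11) and TMEFF2 (-1.02) had the largest 10 Gy minus mock values. RPL27A and RPLP2 were read from probe sets that are dim for ribosomal protein genes, with means of log2 7.88 and 6.56. SOD2 measured 9.40 in mock LMW, 9.77 in mock HMW, 10.07 in 10 Gy LMW and 9.33 in 10 Gy HMW, with its light pool the higher one after 10 Gy and the lower one in mock cells.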

How the data were processed

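RNA of 12 samples was hybridised to arrays with 54675 probe sets. The deposited table holds linear intensities per probe set, made by the authors with RMA (background correction, normalisation and summary of probes) per the submitters' processing notes. Its version, and whether all arrays entered 1 normalisation, is not stated by the sources at hand. Array medians were 22.6 to 24.4, no value was missing, and values were turned to log2. Precision is limited by the number of arrays.

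Probe sets were named from the array's annotation: 41097 had 1 gene symbol, 1801 several and 11777 were not listed. Symbols were checked through entrez_id for 41043 of them, and 0 changed. Only those with 1 symbol entered, and each gene was read from its brightest probe set by mean log2 over all arrays, giving 19775 genes, of which 10157 reached log2 6 in at least 4 arrays. limma 3.58.1 in R 4.3.3 fitted the 8 polysome arrays with condition as a block and a fraction effect per genotype (eBayes with a trend, Benjamini-Hochberg at 0.05). The block pairs LMW with HMW of 1 condition by title. The residual degrees of freedom were 2. The fit was tested on simulated data with known changes. The simulated noise was drawn at the fit's own error for each gene, so this could not check whether that error is right. Starts were read from the RefSeq table of GRCh38.p14 for 8409 of the tested genes.

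The members and the 52 gene lists were chosen with earlier results of these data known. The text names EIF4G1, the 12 highest and 12 lowest called genes, up to 3 highest and 3 lowest members of each list, the 8 highest and 8 lowest called for 4GKD minus WT, and the 5 largest each way between the 4GKD pairs. A planned grouping by protein length was not run, as no protein table was used here. Alternatives were other filters, probe set rules, normalisations and models, and leaving out each pair.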

Additional observations from a re-analysis of the deposited data

Results flagged for a closer look

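The difference between genotypes in HMW minus LMW, tested in the limma fit, passed the threshold for 289 genes in one direction (higher in 4GKD) and 730 in the other. The named genes among them are given here as 4GKD minus WT on the log2 scale, each called by limma with both 4GKD pairs beyond both WT pairs. In the genes of protein synthesis the values were -1.70 for EIF4G1, 1.16 for EIF4E, -1.15 for EIF3B, -1.19 for EIF2B4, -0.93 for EIF5B, -2.40 for EPRS1, -1.69 for AARS1, -1.49 for LARS1, -0.96 for FARSA, -0.81 for YARS1, 0.79 for RPS24, 0.86 for RPS25 and 0.70 for RPL31. For keratins and junctions they were -1.38 for KRT14, -1.29 for KRT8, -1.20 for KRT5, -1.13 for KRT16, -1.08 for KRT18, -0.77 for KRT7 and -1.56 for JUP. Division, replication and repair genes gave -2.24 for TOP2A, -1.99 for SGO2, -1.98 for MCM2, -1.67 for POLD1, -1.02 for CDC20, 1.58 for ASPM, 1.97 for AKAP9, -1.003 for TUBGCP2, -1.64 for MSH6, -0.81 for NUP62, -0.94 for NUP85 and -1.38 for EHMT2. Mitochondrial and metabolic genes gave -0.84 for ND2, -0.84 for ND4, -0.69 for ATP6, -1.17 for COX1, -1.12 for COX2, 1.51 for NDUFA5, 0.91 for CYCS, 0.93 for MRPL19, -1.34 for PFKM, -0.98 for FASN, -2.01 for GART and -1.05 for TKT. Protein quality control and ubiquitin genes gave -1.20 for HSPA5, -1.10 for CCT7, -1.74 for PSMD1, -2.13 for UBE2O, -0.72 for UBE4A, -1.03 for UBE4B, 1.83 for UFM1, -1.15 for SEC61A1 and 1.75 for DNAJC24. RNA-related and noncoding genes gave -1.25 for POLR2B, 1.23 for POLR2K, 1.12 for LSM6, 0.83 for SF3B6, -0.98 for SON, 1.32 for CRNDE, 0.93 for EPB41L4A-AS1, 1.80 for ZNF267 and -1.11 for ZNF324. Among secreted, stress and transport genes the values were 1.32 for CXCL8, 1.41 for CCL20, 1.39 for IL18, 1.02 for INHBA, 0.86 for S100A8, 1.10 for NFE2L2, -0.89 for TFRC, 0.88 for SLC38A1 and 1.08 for SLC36A4. The remaining genes gave -2.06 for CC2D1A, 1.97 for DYNLT3, 2.34 for KIAA1143, -2.21 for NAA15, 1.74 for NEK7, 1.73 for TMEM267 and -1.57 for TNKS2. The sizes held for the probe set used: among 39 of these genes with another probe set at a mean of log2 6 or more, the brightest such set kept the direction in 36, but the difference was over 1.5 times smaller in 12 of them. It was -0.39 for TOP2A, -0.72 for NAA15, -0.54 for SGO2, -1.18 for CC2D1A, -0.89 for EPRS1, -0.68 for HSPA5, -0.54 for SEC61A1, -0.37 for SON, -0.04 for KRT7, 0.30 for INHBA, 0.51 for KIAA1143 and 1.01 for UFM1. The direction turned for EIF5B (0.01), EHMT2 (0.32) and SLC38A1 (-0.10). No cause of these differences was tested. With 1 array per pool and 2 pairs per genotype, no group was large enough for a check of single outlying arrays.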

How the results depend on the processing

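The labels give no replicate numbers, and the pairing used was that of LMW with HMW of the same condition, by title. With no replicate block, 12 genes were called higher and 0 lower in 4GKD (762 and 826 at an unadjusted limma p below 0.05), 612 and 22 in WT, and 0 and 0 for the difference between genotypes (127 and 590). The block therefore moved every count, in 4GKD from 2178 and 2201. The 4GKD counts became 1384 higher with the median of a gene's probe sets, 1265 lower without probe sets prone to cross-hybridise (names ending in _x_at or _s_at), 3401 lower with the 4 4GKD arrays alone, and 1029 and 1100 with all 12 arrays. Fewer genes were tested with the median (7860) and without those probe sets (7248) than in the main fit (10157). Counts from these settings, in every comparison, are therefore not on the same base. WT lower calls, 2119, became 1271 without those probe sets, 1271 under loess and 1406 with 12 arrays. The genotype difference, 289 higher and 730 lower, became 139 and 359 with probe sets combined by their median, 92 and 270 without those prone to cross-hybridise, 0 and 0 without the trend (1030 and 1644 at an unadjusted p below 0.05), and 16 and 167 with 12 arrays. Leaving out 1 pair in turn gave 470 to 3250 higher and 84 to 3438 lower in 4GKD, 2072 to 2930 higher and 1434 to 3211 lower in WT, and 9 to 1952 higher and 99 to 2489 lower for the genotype difference. Genes 2-fold lower fell from 255 to 80 in the mock pair and from 81 to 50 in the 10 Gy pair under loess. A called direction turned in 4GKD cells for ASPM (-0.16, both when probe sets were combined by their median and when the cross-hybridising ones were left out), NACA (-0.47) and SCRN2 (0.013) without those probe sets, and TFRC (-0.27) with the median. For 4GKD minus WT it turned for ASPM (-1.07 under both), EIF5B (0.36 with the median, 0.57 without those probe sets), EHMT2 (0.21), SLC38A1 (-0.10) and TFRC (0.26) with the median, and RPS24 (-0.16) without those probe sets. The RPS24 value came from a probe set with a mean of log2 4.12, below 6 in all 4 polysome arrays of 4GKD cells. It cannot be read as a direction. The ASPM values came from a probe set with a mean of log2 5.62. The cause was not tested. Of the 52 list medians in 4GKD, 2 changed sign under loess and 5 under quantile normalisation, all of them lists with medians between -0.06 and 0.12. The protein length grouping was not run. Intensities below log2 6 limit the size of the largest differences, and 1 array per pool limits every test.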
